A study of Mus musculus with 9 samples.

Results

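The genes described here are those of myoepithelial contraction and its hormonal trigger, chosen by name as the oxytocin receptor Oxtr, the contractile genes Acta2, Actg2, Myh11, Mylk, Cnn1 and Tagln, and Trp63, which encodes the basal epithelial transcription factor p63. The rule took every non-control probe whose gene name on the array equals 1 of these 8 symbols, which gave 18 of the 41174 probes and 8 of the 27962 names of genes and transcripts on the array. Each of the 8 genes had at least 1 probe well above background on all 9 arrays, as judged by the scanner software, and 15 of the 18 probes met that standard.

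Milk is ejected by myoepithelial cells, which lie between the luminal secretory cells and the basement membrane and wrap the alveoli in a contractile net. Suckling releases oxytocin from the pituitary, and its receptor on the myoepithelial cell couples to Gq proteins, phospholipase C and calcium release. Calcium bound to calmodulin activates myosin light chain kinase, and the phosphorylated smooth muscle myosin then pulls on actin filaments, as it does in the wall of a blood vessel.

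RNA came from mammary gland number 4 of dams on L2 (lactation day 2), with 1 Agilent 1-color whole mouse genome array per mouse and no pooling. The 4 WT (wild type) and 5 hNAG-1 dams share the strain background labelled C57BL/7. The hNAG-1 dams carry a transgene for human NAG-1 (NSAID activated gene 1, also named GDF15) that is expressed in all tissues. The study worked mainly with females of 1 of its transgenic lines and combined lines in some experiments, and its methods do not say which was done for the arrays. No probe of the array was used as a check of the human transgene, so the genotypes rest on the labels.

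Values are the scanner's background-subtracted intensities after each array was scaled to a common 75th percentile, and a log2 fold change is hNAG-1 minus WT. WT 1 was alone on slide 1. The mice hNAG-1 1, 2, 3 and 4 shared slide 2, and hNAG-1 5 shared slide 3 with WT 2, 3 and 4. Genotypes could therefore be compared within a slide only on slide 3. WT 2 stood apart from the other arrays. It had the highest 75th percentile before scaling, 1185 against 532.6 to 956.4, and its summed scaled intensity of 12 lymphocyte marker genes was 81512, against 1565 to 12736 on the other 8 arrays. Values without WT 2 are given beside many of the results. In whole gland RNA, fewer myoepithelial cells and less RNA per cell cannot be told apart.

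The probes that read coding sequence of the receptor and of 2 contractile proteins are shown because the actins and myosins are families of similar genes. They were compared only with the other probes of the array, and matches to transcripts of related genes outside those probes were not tested. Each has 60 bases and is printed 5′ to 3′ as the array file gives it, on the transcript strand. Capitals mark the longest run that also occurs in a probe designed for another gene on the same array.
Oxtr A_52_P430422: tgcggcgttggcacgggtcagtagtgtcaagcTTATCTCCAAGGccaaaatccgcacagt
Acta2 A_51_P450957: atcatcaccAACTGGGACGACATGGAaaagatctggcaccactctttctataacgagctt
Myh11 A_51_P362429: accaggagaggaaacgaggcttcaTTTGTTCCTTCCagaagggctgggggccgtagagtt

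On mm7, the mouse genome build of the array file, the Oxtr probe lies at chr6:112649929-112649988 on the minus strand. The other 2 probes span more genome than their own length, since they cross an intron. The Acta2 probe covers chr19:33949738-33952992 and the Myh11 probe chr16:13741638-13744562, both on the minus strand. The longest run shared with a probe of another gene was 17 bases for the Acta2 probe and 12 for Oxtr and Myh11. The exon annotation of this build was not used here.

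The first comparison asked whether the receptor and the contractile genes differed between WT and hNAG-1 glands. None of the 8 genes differed after adjustment over all probes, with a lowest adjusted p of 0.661 by limma. Without adjustment, the smooth muscle myosin heavy chain Myh11 was higher in hNAG-1 glands, 1.39-fold, and was the only gene with a probe above background that passed a p of 0.05 by limma. By the unadjusted exact permutation test, 1 probe of Tagln passed as well, at 0.0317. That test was not run over all probes, so no share of all probes stands beside it. All 15 probes above background had a log2 fold change above 0, from 0.05 to 0.57, and 14 of the 15 intervals included 0. The other probe under 0.05 by limma was a Mylk probe that was not above background on any array. These 2 of 18 probes stood beside 5.6% of all probes with an unadjusted p under 0.05, 1.15% higher and 4.45% lower in hNAG-1. Among probes well above background on all arrays, 1 of the 15 and 3.84% of all such probes passed. After adjustment, 0.00243% of all probes, which is 1 probe, passed 0.05. These background counts moved with single arrays. Without hNAG-1 5, 5924 probes passed without and 215 with adjustment, against 2307 and 1 on all arrays, and without hNAG-1 2 the unadjusted count was 1163. With slide as a random block, 1 probe passed after adjustment, as on all arrays without the block. The lowest adjusted p of the 15 probes was 0.173 without hNAG-1 5.

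**Figure D1:**
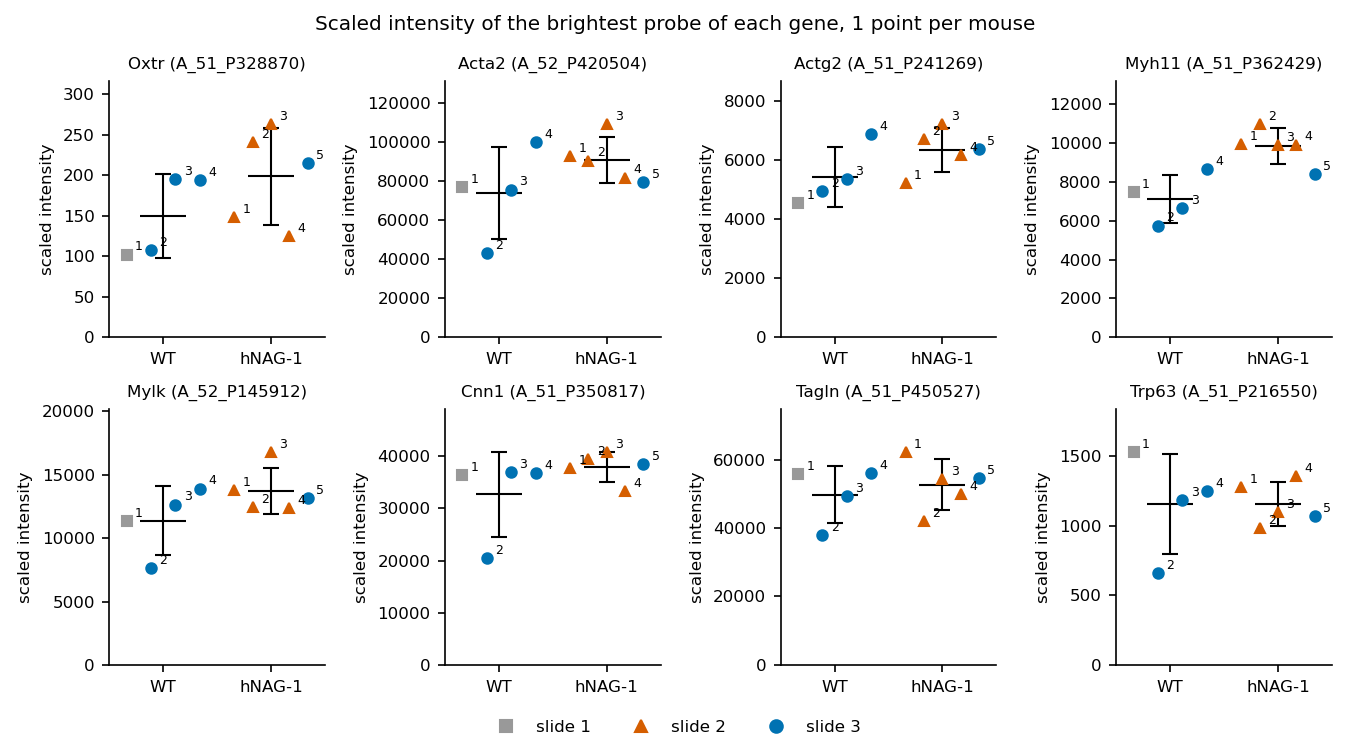
Scaled intensity (linear axis from 0) of the brightest probe of each of the 8 genes, with 1 point per mouse, numbered by replicate and shaped by slide. Horizontal lines are genotype means and bars are the SD (n = 4 WT, n = 5 hNAG-1). Genotypes overlap in every panel, WT 2 is the lowest point for Acta2, Myh11, Mylk, Cnn1, Tagln and Trp63, and 4 of 5 hNAG-1 mice lie above every WT mouse for Myh11.

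Oxtr, the Gq-coupled receptor through which oxytocin acts, was measured by 2 probes. The probe printed above gave scaled intensities of 36.7, 35.8, 59.9 and 67.1 in WT 1 to 4, and 93.8, 76.8, 77.8, 48.2 and 67.9 in hNAG-1 1 to 5. WT 1 and WT 2 were the low arrays, and 4 of 5 hNAG-1 values lay above every WT value, with hNAG-1 4 between the WT pairs. This was a log2 fold change of 0.57 ± 0.26 (SE, 4 WT and 5 hNAG-1 mice), with a 95% interval from -0.02 to 1.17 and a limma p of 0.0572. The two-sided exact permutation test gave 0.0873. The other Oxtr probe, A_51_P328870 at chr6:112637108-112637169, gave 102, 107, 195 and 194 in WT and 148, 241, 263, 125 and 215 in hNAG-1. Its order of arrays differed in hNAG-1 1, which was highest by the first probe and below WT 3 and WT 4 by the second. It differed by 0.42 ± 0.31 (SE) on the log2 scale, with an interval from -0.27 to 1.11 and a p of 0.204 by limma. This was 0.26 without WT 1, 0.28 without WT 2 and 0.17 with array weights, and the probe printed above was at 0.43 without WT 2. On slide 3, where hNAG-1 5 faced WT 2 to 4, the differences were 0.38 and 0.43. Both Oxtr probes therefore had the same sign in each comparison, and both intervals included 0.

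Myh11, the heavy chain of the smooth muscle motor that produces the contraction, gave 7478, 5752, 6634 and 8653 in WT and 9968, 10984, 9921, 9928 and 8399 in hNAG-1. The 4 hNAG-1 mice above every WT mouse were those of slide 2, and hNAG-1 5 on slide 3 lay below WT 4 and above the other WT mice. The WT mean was 7129 ± 1236 (SD, n = 4) and the hNAG-1 mean was 9840 ± 924 (SD, n = 5). The difference on the log2 scale was 0.48 ± 0.16 (SE), with an interval from 0.12 to 0.84, a limma p of 0.0151, an adjusted p of 0.661 and an exact permutation p of 0.0238. Within slide 3 the difference was 0.28, with a p of 0.357 by limma with slide as a block, a fit in which 7.61% of all probes had an unadjusted p under 0.05. That contrast sets a single hNAG-1 mouse against 3 WT mice, and the spread of the lone mouse is assumed to be that of the other arrays. Slide and genotype cannot be told apart for the other arrays.

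Acta2, the smooth muscle α-actin of the contractile filament, was read by 5 probes. The brightest, A_52_P420504, was printed 10 times on each array, and the coefficient of variation of these features was 1.57% to 4.25%. It gave 76629, 43008, 75495 and 99711 in WT and 92586, 90305, 108984, 81607 and 79469 in hNAG-1. WT 2 was lowest by a wide margin, WT 4 lay above 4 of the 5 hNAG-1 values, and the spread between mice was far larger than that between features. For this probe the log2 fold change was 0.35 ± 0.24 (SE), with an interval from -0.19 to 0.89, a limma p of 0.174 and an exact permutation p of 0.19. Without WT 2 it was 0.11.

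The Acta2 probe printed above, which lies across an intron, gave 9005, 9664, 10919 and 16387 in WT and 10697, 15481, 16682, 13610 and 12315 in hNAG-1. Its log2 fold change was 0.28, its interval ran from -0.21 to 0.77, and the difference within slide 3 was 0.04. The log2 fold change was 0.18 without WT 1, 0.21 without WT 2 and 0.47 without WT 4. In this probe WT 1, not WT 2, was lowest, so probes of 1 gene ranked the WT arrays differently. The other 3 Acta2 probes had log2 fold changes of 0.22 (A_52_P210078), 0.06 (A_52_P239556) and 0.14 (A_52_P644232), and each was below 0 without WT 2, at -0.09, -0.21 and -0.29.

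Actg2, the smooth muscle γ-actin, gave 4527, 4951, 5342 and 6884 in WT and 5229, 6698, 7212, 6173 and 6367 in hNAG-1. WT 4 lay among the hNAG-1 values and hNAG-1 1 among the WT values. The genotypes differed by 0.23 ± 0.17 (SE) on the log2 scale, with an interval from -0.14 to 0.61, a limma p of 0.197 and an exact permutation p of 0.143. It was 0.17 within slide 3, 0.20 without WT 2, 0.15 without WT 1 and 0.35 without WT 4.

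Mylk encodes myosin light chain kinase, the step that calcium and calmodulin switch on. Its brightest probe, A_52_P145912, gave 11346, 7630, 12652 and 13907 in WT and 13791, 12427, 16806, 12400 and 13157 in hNAG-1. This was a difference of 0.29 on the log2 scale with an interval from -0.16 to 0.75. The second probe, A_52_P575217, gave 0.25 with an interval from -0.24 to 0.73. WT 2 was the lowest array in both, and without it the values were 0.11 and 0.06. The third probe, A_51_P272407, was not well above background on any array, and no fold is given for it.

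Cnn1 (calponin) and Tagln (transgelin) encode actin-binding proteins of the smooth muscle filament. Cnn1 gave 36345, 20548, 36976 and 36788 in WT and 37664, 39459, 40830, 33254 and 38561 in hNAG-1. Apart from WT 2, the WT values lay close together, and 4 of 5 hNAG-1 values lay just above them. Its log2 fold change of 0.25, with an interval from -0.20 to 0.71, was 0.04 without WT 2.

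The Tagln probe A_52_P517683, at chr9:45888956-45889015, gave 4785, 4496, 4781 and 6019 in WT and 6105, 5585, 6576, 5643 and 6396 in hNAG-1. Every hNAG-1 value was above 3 of the 4 WT values, and WT 4 lay among the hNAG-1 values. On the log2 scale the difference was 0.28 ± 0.14 (SE), with an interval from -0.04 to 0.60, a limma p of 0.0791 and an exact permutation p of 0.0317. It was 0.34 within slide 3 and 0.23 without WT 2. The second Tagln probe, A_51_P450527, gave 0.09 with an interval from -0.31 to 0.48, and -0.04 without WT 2, so the 2 probes of this gene differed in size.

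Trp63 is required for the basal cell layer to which myoepithelium belongs. Its probe above background, A_51_P216550, gave 1533, 663, 1188 and 1249 in WT and 1280, 982, 1102, 1359 and 1069 in hNAG-1. WT held both the highest and the lowest value, and the genotype means were both 1159. On the log2 scale they differed by 0.05, with an interval from -0.49 to 0.60, and -0.19 without WT 2. The other Trp63 probes were well above background on 1 array (A_52_P17264) and on none (A_52_P338796), and no fold is given for them.

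**Figure D2:**
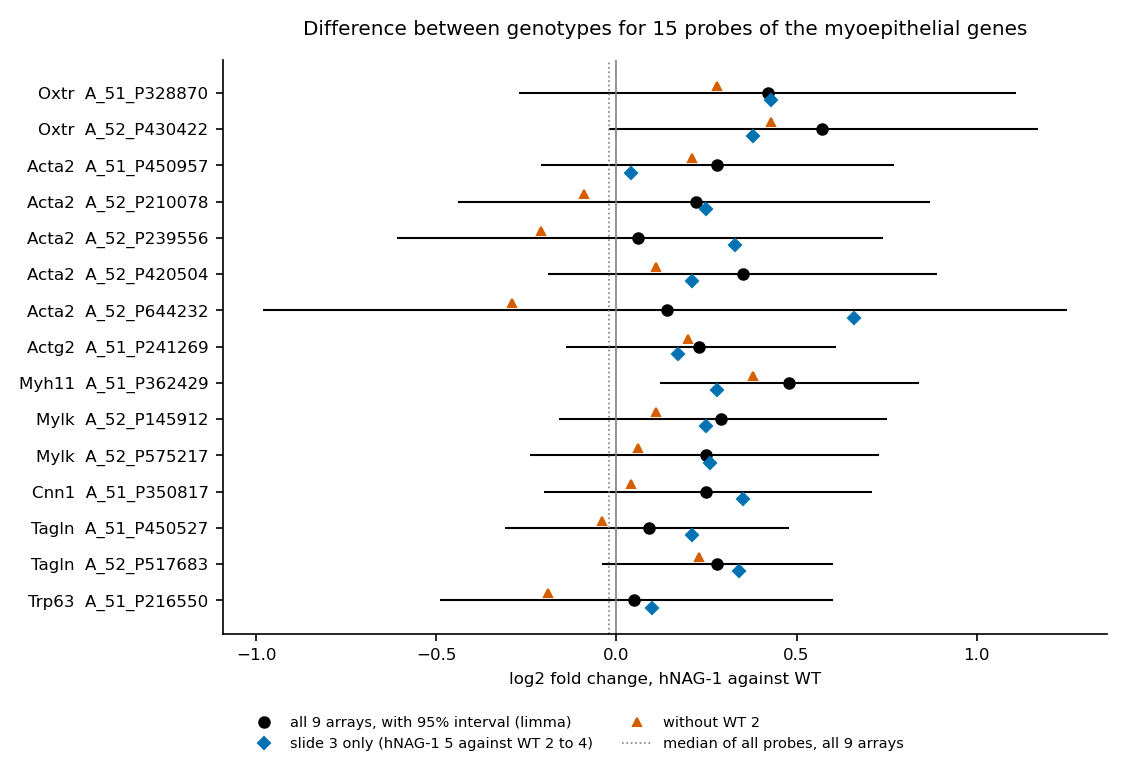
Log2 fold change of hNAG-1 against WT (horizontal axis) for the 15 probes above background, with 95% limma intervals (lines), the difference within slide 3 (diamonds) and the value without WT 2 (triangles). Circles lie from 0.05 to 0.57, the Myh11 interval alone lies above 0, and 5 triangles lie below 0.

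The shared direction of the 15 probes was then set against the whole array. Of the 23089 probes well above background on all arrays, 51.9% were higher in hNAG-1, and their median log2 fold change was 0.01, against 0.25 for the 15 probes. With slide as a block, all 15 probes were again higher, beside 62% of the 23089 probes, and the medians were 0.26 and 0.09. The array of hNAG-1 5 lay above all 3 WT arrays of slide 3 for 4 of the 15 probes, beside 34.9% of the 23089 probes. Without WT 2 the median of the 15 probes was 0.11 and that of the 23089 probes was -0.03. Without WT 4 the median of the 15 probes was 0.40. The probes are not independent, since several read the same gene and all come from the same RNA.

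The profiles over the arrays showed where that direction lay. WT 2 was the lowest of the 9 arrays in 12 of the 15 probes, beside 29.2% of the 23089 probes, and WT 1 was lowest in the other 3. Its median log2 deviation from the mean of the 9 arrays was -0.71 over the 15 probes, and -0.07 over all probes. hNAG-1 3 was highest in 8 probes, WT 4 in 3, hNAG-1 1 in 2, and WT 1 and hNAG-1 2 in 1 each. The SD of log2 values was larger in WT than in hNAG-1 for all 15 probes, with medians of 0.42 and 0.21, while it was larger in WT for 49.6% of the 23089 probes. Without WT 2 the WT median SD was 0.19. The part of the lymphocyte markers of WT 2 in these values was not tested.

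**Figure D3:**
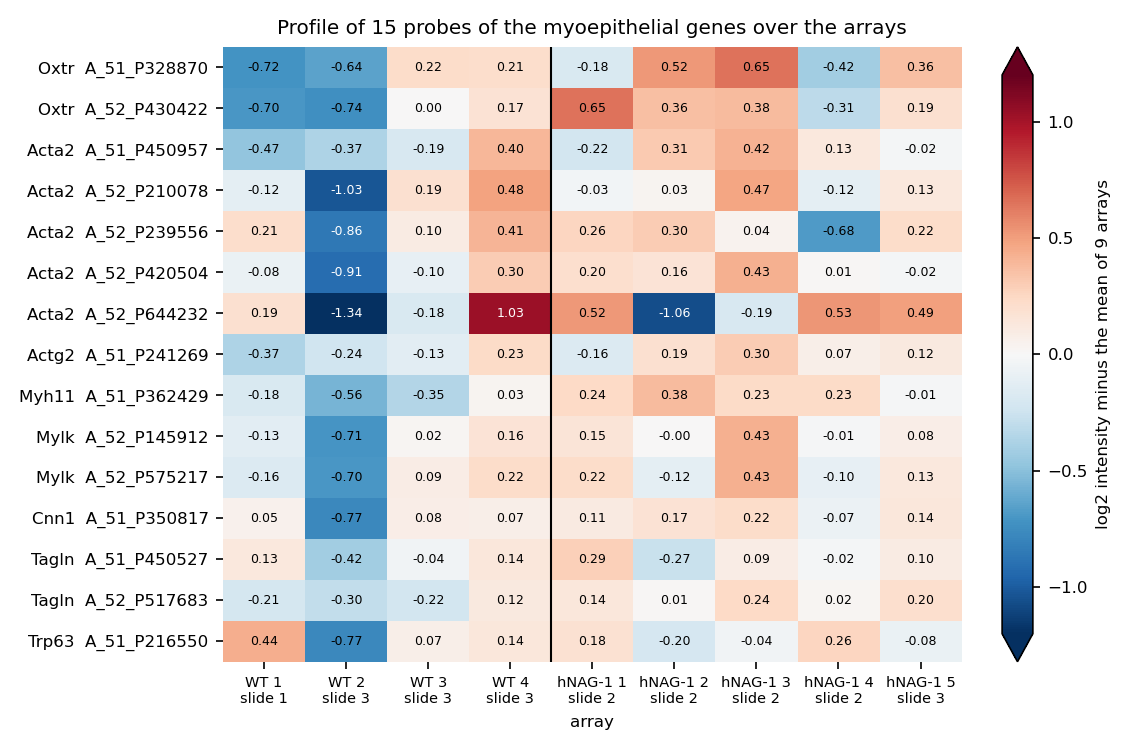
Log2 intensity minus the mean of the 9 arrays (color and printed value) for the 15 probes above background (rows) on each array (columns, with the slide); the vertical line separates WT from hNAG-1. The WT 2 column is below 0 in every row, from -0.24 to -1.34, and the WT 4 column is above 0 in every row.

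Without any scaling the median log2 fold change of the 15 probes was 0.11, beside -0.16 for all probes. With each array divided by its median it was 0.47, beside 0.20 for all probes. Each of these settings shifts every probe by the same amount, so the distance between the 15 probes and all probes is fixed by the arithmetic and says nothing about the scaling, and probes close to 0 change sign with the shift.

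Among the genes, the profiles were compared by the root mean square difference of centered log2 values over the 9 arrays, on the brightest probe of each. Acta2 and Mylk were closest, at 0.116, followed by Mylk and Cnn1 at 0.123. The most distant pair was Oxtr and Trp63, at 0.595. The Oxtr profile was low in WT 1 and WT 2 and high in hNAG-1 2 and 3. Among 21104 probes of other named genes, it was nearest to that of Tnfrsf21, a death domain receptor, at 0.0962. Next came the metalloproteinase gene Adamts12 at 0.129 and the collagen gene Col5a2 at 0.146. The mean profile of the 6 contractile genes was nearest to that of Vwa1, an extracellular matrix gene, at 0.073, of Plekhc1 (now Fermt2, an integrin-binding adaptor) at 0.0753, and of Echdc3 at 0.08. These likenesses describe 9 arrays and carry no test.

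The next comparison covered the other genes of the pathway. Of 28 genes of oxytocin signalling downstream of or beside the receptor, 13 were higher and 15 lower in hNAG-1. Their median log2 fold change was -0.01, and none passed an unadjusted p of 0.05 by limma. By the exact permutation test 2 did, and no share of all probes was computed for that test. The G protein gene Gnaq was at 0.02 and the calcium release channel gene Itpr1 at -0.23. Groups that did not overlap were found for 1.35% of all probes and for no probe of the 8 genes. Ptgs2, which encodes a prostaglandin synthase, had the lowest p of this list but was not above background on any array.

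Of 31 further genes of the contractile apparatus, 20 were higher and 11 lower, none passed an unadjusted p of 0.05 by limma or by the exact permutation test, and the median was 0.10. With 1 mouse left out that median ran from 0.01 (without hNAG-1 3) to 0.15 (without hNAG-1 4), and it was 0.05 without WT 2. It was -0.04 with no scaling and 0.32 with median scaling, beside -0.16 and 0.20 for all probes. Tpm2, a tropomyosin that lies along the actin filament, gave 14455, 10109, 12211 and 18857 in WT and 19411, 18046, 22337, 14782 and 16969 in hNAG-1, with a log2 fold change of 0.42, an interval from -0.05 to 0.89 and a limma p of 0.0727. Synpo2, an actin-bundling protein of muscle, had a log2 fold change of -0.60 with a p of 0.0994 by limma. Of 8 regulators around the serum response factor Srf, which drives smooth muscle genes, 5 were well above background on all arrays. By sign 3 were higher, with Elk1, above background on no array, among them. The 5 lower ones included Fhl1, at -0.00. None passed a p of 0.05 by either test, and the median was -0.01. With 1 mouse left out this median ran from -0.19 (without hNAG-1 5) to 0.18 (without hNAG-1 4). It was 0.28 within slide 3, where the median of all probes was 0.19. Within that list Srf was at 0.15, its cofactor Mkl1 at -0.27 with a limma p of 0.147, and its smooth muscle cofactor Myocd was above background on 6 of 9 arrays, with a p of 0.217.

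Markers of the basal epithelium served as the check of the cell type. The basal keratins were well above background on all 9 arrays, as were 23 of the 26 markers. Of the 26, 20 were higher and 6 lower in hNAG-1, none passed an unadjusted p of 0.05 by limma, and the median was 0.15, which was -0.01 without WT 2. By the exact permutation test, for which no share of all probes was computed, 1 of them, Sox10, passed, at 0.0397. Keratin Krt14 gave 7853, 4683, 6989 and 8489 in WT and 9270, 7711, 8758, 10562 and 7257 in hNAG-1, with a log2 fold change of 0.34 and a p of 0.136 by limma. The log2 fold change of Krt5 was 0.33, that of Krt17 was 0.48 and that of Sox10, a transcription factor, was 0.47, with limma p-values of 0.27, 0.19 and 0.069. Without WT 2 the values were 0.16 for Krt14, 0.04 for Krt5, 0.12 for Krt17 and 0.26 for Sox10. WT 2 was the lowest array for each of these 4 genes, as it was for 12 of the 15 probes above. Within slide 3 the 4 genes were at 0.15, 0.08, 0.02 and 0.30. The list median there was 0.07, beside 0.19 for all probes. Krt17 had the highest value of the list. The 6 lower genes were Bnc1 (-0.67, above background on no array), Nrg1 (-0.19), Jag1 (-0.09), Vim (-0.07), Lamb3 (-0.07) and Itga3 (-0.03).

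**Figure D4:**
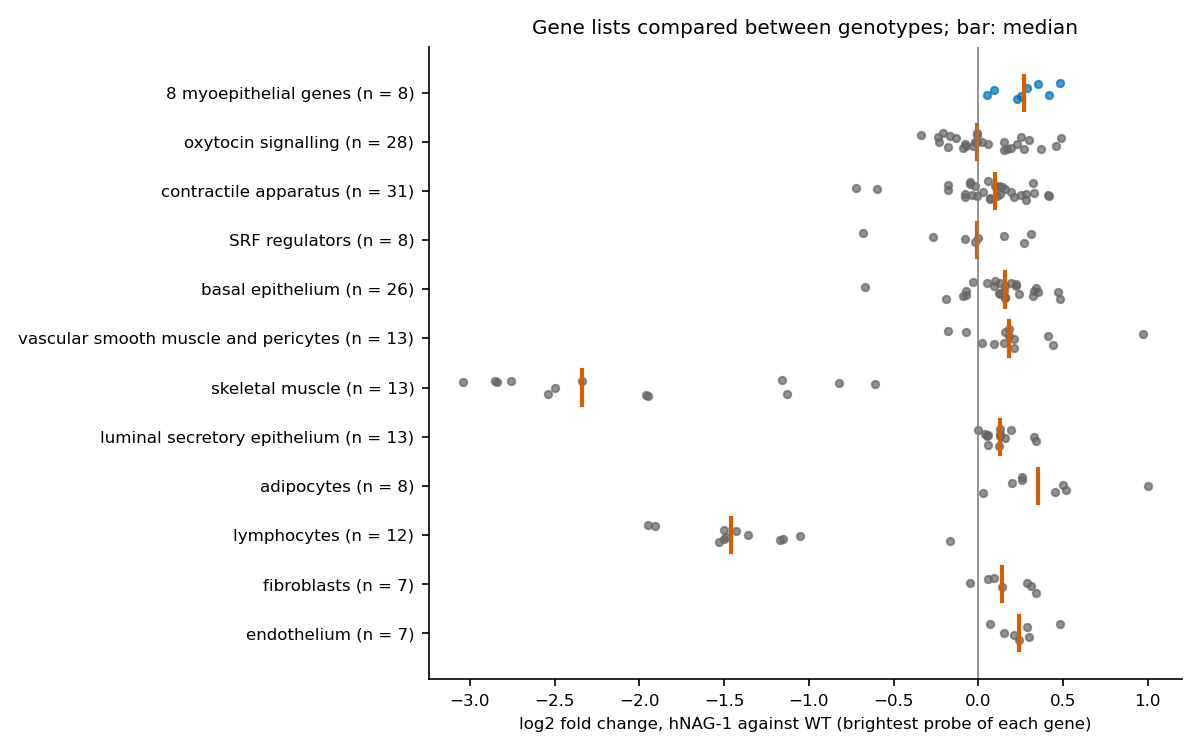
Log2 fold change of hNAG-1 against WT (horizontal axis) for the brightest probe of each gene, above background or not, in the 8 myoepithelial genes, 4 related lists and 7 marker lists of other cell types (rows); orange bars are medians and vertical scatter is arbitrary. The 8 genes have a median of 0.27, and the lists of the pathway and of basal epithelium lie between -0.01 and 0.15. Adipocyte, endothelial, vascular, fibroblast and luminal markers lie at 0.35, 0.24, 0.18, 0.14 and 0.13. Skeletal muscle and lymphocyte markers lie at -2.34 and -1.46.

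Acta2, Actg2, Myh11, Mylk, Cnn1 and Tagln are also made by vascular smooth muscle, so markers of that tissue and of the other cells of the gland were set beside them. Of 13 markers of vascular smooth muscle and pericytes, 11 were higher and 2 lower in hNAG-1, with a median of 0.18, which was 0.04 without WT 2. The summed scaled intensity was 9315 to 14620 in WT and 11456 to 17381 in hNAG-1, and none of its defining markers Rgs5, Notch3 and Pdgfrb was at background. Cspg4, which encodes the pericyte proteoglycan NG2, passed an unadjusted p of 0.05, with a log2 fold change of 0.97 and a p of 0.0351 by limma. It was the only gene of that list to pass by limma. By the exact permutation test its p was 0.0635, and 0 genes of the list passed. Gucy1a3, a subunit of the nitric oxide receptor, came next with a log2 fold change of 0.44 and a limma p of 0.125. The values for Rgs5, Notch3 and Pdgfrb were 0.15, 0.21 and 0.18, and each turned sign within slide 3, at -0.09, -0.36 and -0.17. Over the list, the median within slide 3 was 0.06, beside 0.19 for all probes, with 7 of 13 genes higher. The part of vascular smooth muscle in the values of the 8 genes was not tested.

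Skeletal muscle markers were lower in hNAG-1 for 13 of 13 genes, with a median of -2.34 and no gene under a p of 0.05 by limma. Within slide 3 the median was -0.73 and 2 of the 13 were higher. The lowest p-values were those of the troponin genes Tnnt3 and Tnni2, 0.0695 and 0.121 by limma. Their summed intensity was 6686 to 240288 in WT and 4419 to 70348 in hNAG-1, with the highest value in WT 4. Acta1, the skeletal muscle actin, gave 1564, 5130, 3909 and 20931 in WT and 1655, 1798, 6714, 1637 and 5879 in hNAG-1. Its lowest WT array was WT 1, as in the Acta2 probe printed above, while WT 2 was lowest in the brightest Acta2 probe. In Acta1 and in both of these Acta2 probes, WT 4 was the highest WT array and hNAG-1 3 the highest hNAG-1 array. Lymphocyte markers were lower for 12 of 12 genes, with a median of -1.46, which was -0.38 without WT 2 and -0.70 within slide 3. Of these 12 genes only Cd2, a lymphocyte adhesion receptor, passed an unadjusted p of 0.05, at 0.0487 by limma with a log2 fold change of -1.50. Its exact permutation p was 0.0714. The B cell receptor genes Cd79a and Cd79b were at -1.05 and -1.53. Without WT 2, Cd2, Cd79a and Cd79b were at -0.78, -0.61 and -0.28. Medians of the other lists were 0.35 for 8 adipocyte markers, 0.13 for 13 luminal secretory markers, 0.14 for 7 fibroblast markers and 0.24 for 7 endothelial markers. All 8 adipocyte and all 7 endothelial markers were higher in hNAG-1, as the 8 genes were by their brightest probes. Without WT 2 these 4 medians were 0.29, -0.05, 0.13 and 0.33. Within slide 3 they were 0.15, 0.11, 0.28 and -0.12, beside 0.19 for all probes. The luminal and the endothelial median each turned sign in 1 of these settings. None of these 4 lists held a gene with an unadjusted p under 0.05 by limma. Their lowest p-values were 0.067 for the adipokine gene Retn, 0.153 for the α-lactalbumin gene Lalba, 0.266 for the collagen gene Col3a1 and 0.0689 for the endothelial receptor gene Tie1, each by limma. The part of these tissues in the values of the 8 genes was not tested.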

How the data were processed

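Gland number 4 of 4 WT and 5 hNAG-1 dams gave the RNA. The authors deposited, per the file headers, a background-subtracted intensity for each feature of 9 1-color arrays, written by Agilent Feature Extraction (version 9.5 in the submitters' processing notes) and not scaled between arrays. The deposited value table held the same intensities and served as an alternative.

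Control features were left out (1639 of 45018), arrays were brought to a common 75th percentile over the remaining features, and replicate features were averaged, which gave 41174 probes. Genotypes were compared on log2 values with lmFit and eBayes of limma version 3.58.1 in R version 4.3.3, two-sided, without covariates, with Benjamini-Hochberg adjustment over all probes. Exact permutation tests used all 126 splits into 4 and 5 arrays, for which the smallest p is 0.00794. They were run for each probe of the 8 genes and for the brightest probe of each list gene, not over all probes, and are not adjusted. The fit was tested on simulated data. Arrays have no read depth, and precision is limited by their number.

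The 8 genes and all gene lists were chosen with earlier results of these data known. All probes of the 8 genes are described. The rule for other genes took the 2 of lowest unadjusted p in each list, the leading markers of each cell type and the 3 of most similar profile, of which lists without bearing on a result are given by their lowest p alone. Gnaq, Itpr1 and Srf were added after their values were seen. The values of 2 list genes that the rule would name are not reported here. The brightest probe stood for a gene in the lists. Of the list genes, Actg1 and Ndufa4l2 were not matched. Groups came from the labels, and all 9 arrays were used. Alternatives covered background correction (normexp, offset 50), scaling, a floor of 20, a filter on dim probes, outlier features, the variance model, array weights, slide, each mouse left out, a replicate block and the methods' ANOVA. Median scaling and quantile normalization without WT 2 were added after seeing the data.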

Additional observations from a re-analysis of the deposited data

Results flagged for a closer look

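Dixon's test was run on 36 groups, the 2 genotypes of each of the 18 probes, and 4 groups held a mouse that stood apart, where chance gives about 1 in 20. Cnn1 was 20548 in WT 2, below the 36345 to 36976 of the other WT mice. The Acta2 probe A_52_P239556 was 171 in hNAG-1 4, below the 281 to 337 of the other hNAG-1 mice. The Trp63 probe A_52_P17264 was 82 in hNAG-1 3, the only array on which it was well above background. The Mylk probe A_51_P272407 was 21.9 in hNAG-1 5, against 6.43 to 8.78 in the other hNAG-1 mice, all of slide 2, and was not well above background on any array.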

How the results depend on the processing

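Of 390 comparisons of the 15 probes above background with an alternative, 353 kept direction and side of the unadjusted threshold, 12 passed it newly, 3 no longer passed it and 22 turned sign. Signs were read at 2 decimals, so Acta2 A_52_P239556 without hNAG-1 2, at -0.00, is not counted as turned. Those that newly passed were Oxtr A_52_P430422 in 6 settings (0.57 to 0.85), Tagln A_52_P517683 in 5 (0.28 to 0.49) and Acta2 A_51_P450957 in 1, without WT 4 (0.47). No cause was tested. The count of probes of the 8 genes with an unadjusted p under 0.05 was 2, and became 1 with normexp, no scaling, slide as a fixed or random block or slide 3 alone, and 4 with quantile normalization or median scaling. It was 1 to 4 with 1 mouse left out. Myh11 no longer passed with no scaling (0.33) or within slide 3 (0.28), where hNAG-1 is 1 mouse. Signs turned with no scaling for Acta2 A_52_P239556 (-0.08) and A_52_P644232 (-0.01), Tagln A_51_P450527 (-0.06) and Trp63 A_51_P216550 (-0.09). Array weights turned these to -0.15, -0.34, -0.01 and -0.08 and Acta2 A_52_P210078 to -0.08. Without WT 2 the same probes were at -0.21, -0.29, -0.04, -0.19 and -0.09. With each mouse left out in turn they ran from -0.21 to 0.24, -0.29 to 0.50, -0.04 to 0.16, -0.19 to 0.21 and -0.09 to 0.42. Adding quantile normalization gave -0.15, -0.03, -0.03, -0.20 and -0.10, and adding median scaling gave -0.01 and -0.09 for the first 2. Without hNAG-1 4, the Trp63 probe was at -0.01. Counts under an unadjusted p of 0.05 in the oxytocin signalling, contractile apparatus, Srf and basal epithelium lists, 0 in each, were 1 with normexp for basal epithelium, 1 with median scaling for basal epithelium, oxytocin signalling and the contractile apparatus, and, for oxytocin signalling, 2 with quantile normalization and 3 with slide as a fixed block. With 1 mouse left out they were 0 to 1. The deviations of same-numbered mice from their genotype means had an r from -0.307 to 0.279 over probes. These few values cannot settle whether the numbers pair mice. The replicate block also drops hNAG-1 5, which has no WT of its number. With it, the count for the 18 probes was 2, their median was 0.25 against 0.27, and 5447 of all probes passed without adjustment, against 5924 when hNAG-1 5 was left out without the block and 2307 on all arrays. For 3 probes at background, signal over background is the limit.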
